A study of Mus musculus with 47 samples.

Results

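The ileum of germ-free (GF) mice was compared with the ileum of conventional raised (convR) mice, using every library of the series whose label names the ileum: 23 of 47, of which 12 were convR and 11 were GF. All came from male C57BL/6j animals aged 15 to 16 weeks that fed ad libitum, and no allele, drug or diet other than the microbial status set the groups apart in the labels. Tissue was taken at zeitgeber times (hours of the light cycle, ZT) 2, 6, 10, 14, 18 and 22, with 2 libraries in each group at each time except GF at ZT2, which had 1. The labels carry a replicate number, and it is not given there whether libraries are separate animals, nor whether GF and convR mice came from one colony, so the p-values below measure the spread between libraries.

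The assay was total RNA sequencing after ribosomal RNA depletion with a stranded kit, counted over exons, and the libraries held 24925638 to 41911085 counts. Each level is a TMM-scaled CPM (a count divided by its scaled library total), and each difference is the log2 of GF over convR from one fit that treated sampling time as a factor. A log2 value in parentheses after a gene is that difference. A gene is called higher or lower where its p, adjusted over all 18082 genes tested, was under 5%. In group means the tissue label held: Fabp6, the ileal bile acid binding protein, was at 2781 ± 951 CPM in convR (SD, n = 12) and 2881 ± 1075 CPM in GF (SD, n = 11). The 7 pancreas acinar genes that serve as a check on contact with that organ summed to at most 1.67 CPM in any library. A pair of libraries stood apart, convR ZT6 replicate 2 with Fabp6 at 212 CPM and GF ZT22 replicate 2 with 629 CPM, against 1946 to 4505 CPM in the other 21, and Fabp1, a fatty acid binding protein of the upper small intestine, was at 350.1 and 139 CPM in them against at most 96.9 CPM elsewhere. Without both, the counts given next were 3801 lower and 3252 higher. Another 5 libraries stood apart by low Lct, the lactase of the upper small intestine: replicate 1 of convR at ZT6, ZT14 and ZT22, replicate 2 of GF at ZT14 and replicate 1 of GF at ZT18 had 2.83 to 12.4 CPM, against 47.4 to 1802 CPM in the other 18. Without these 5, an alternative chosen after seeing the data, 3379 genes were lower and 2979 higher.

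The ileum is the last segment of the small intestine, which recovers bile acids and cobalamin, and it carries more bacteria than the segments above it. Microbes there are known to draw lymphocytes into the epithelium and plasma cells into the lamina propria, and interferon-gamma from those lymphocytes is known to switch on antigen presentation and guanylate-binding proteins in epithelial cells. Epithelial cells in turn make oxidants, lectins, complement and glycan caps that face the bacteria, beside their work in digestion, transport and detoxification.

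In GF ileum 4052 genes were lower and 3535 were higher, which is 22.4% and 19.5% of those tested (42.0% in either direction). Size was uneven between the directions. Called falls of at least 1 log2 numbered 932 (5.15% of genes), and called rises of that size 161 (0.890%). All 11 GF libraries lay below all 12 convR libraries for 825 genes (4.56%) and above them for 267 (1.48%). The median difference over all genes was 0.0068. The balance of directions moved with the scaling: rises were 46.6% of calls here, 50.2% (3876 higher, 3848 lower) with median-ratio size factors, and 32.3% (2320 higher, 4860 lower) with library totals alone, under which the median over all genes was -0.05. With so many genes called, a small list with some calls in each direction does not stand out from the rest.

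**Figure D1:**
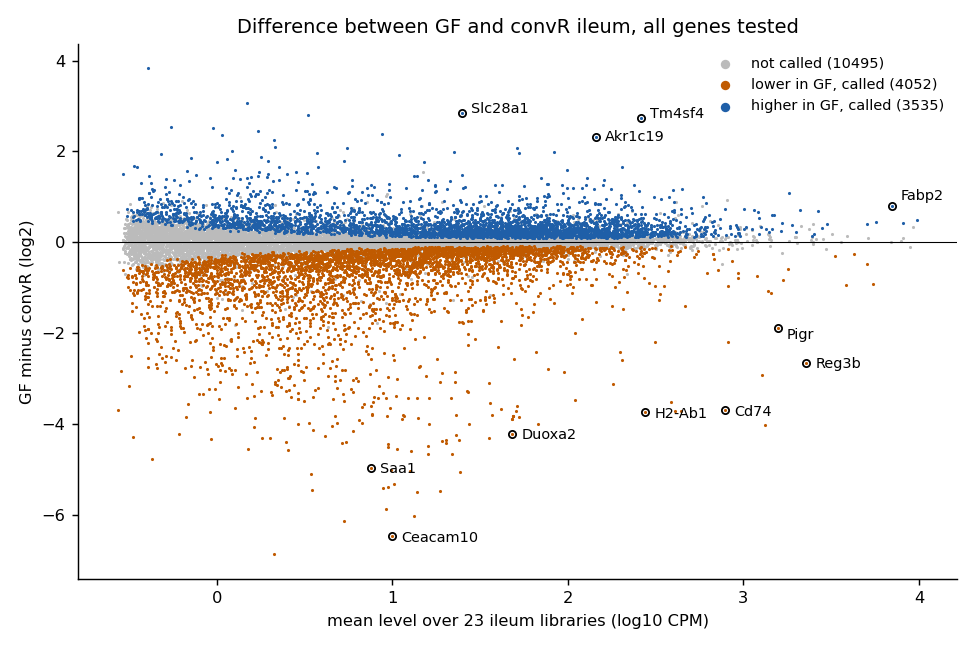
Difference between GF and convR ileum (log2, vertical axis) against the mean level over the 23 libraries (log10 CPM, horizontal axis), 1 point per gene tested, with the 4052 called lower in orange and the 3535 called higher in blue. Falls reach further from 0 than rises, with Ceacam10 at -6.48 and Slc28a1 at 2.85.

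Genes of interferon response and antigen processing were a broad block of falls. To show the motif ahead of 3 of them, chosen because they hold it, the 250 bases before the first listed start of 2 guanylate-binding proteins and of the GTPase Igtp are printed 5′ to 3′ on the gene's strand, from the RefSeq table for GRCm38.p6, Gbp3 at chr3:142559794-142560043, Gbp7 at chr3:142530086-142530335 and Igtp at chr11:58199306-58199555, all on the plus strand. Capitals mark matches to GAAANNGAA, the core of the element through which interferon-responsive factors act, sought on both strands, so that a match on the other strand reads TTCNNTTTC, and overlapping matches form one run.
Gbp3: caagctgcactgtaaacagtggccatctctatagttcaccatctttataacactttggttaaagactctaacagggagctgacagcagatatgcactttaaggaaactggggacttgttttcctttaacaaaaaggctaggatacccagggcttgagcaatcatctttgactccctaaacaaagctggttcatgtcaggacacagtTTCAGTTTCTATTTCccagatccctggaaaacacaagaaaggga
Gbp7: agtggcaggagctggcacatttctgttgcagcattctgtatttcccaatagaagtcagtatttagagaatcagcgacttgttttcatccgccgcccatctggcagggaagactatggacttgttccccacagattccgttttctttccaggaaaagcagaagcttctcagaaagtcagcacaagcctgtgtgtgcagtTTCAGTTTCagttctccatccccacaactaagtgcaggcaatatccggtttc
Igtp: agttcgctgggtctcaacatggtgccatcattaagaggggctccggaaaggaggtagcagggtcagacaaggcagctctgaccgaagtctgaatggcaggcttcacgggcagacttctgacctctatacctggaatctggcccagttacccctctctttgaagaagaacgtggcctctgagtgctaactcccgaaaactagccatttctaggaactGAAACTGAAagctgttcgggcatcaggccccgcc
The match nearest to the start began 38 bases before it in Gbp3, 52 in Gbp7 and 34 in Igtp. Of all 27025 promoters in the table, each taken at its first listed start, 7.16% held the motif somewhere in this window. Of the 32 genes of the interferon and antigen processing list 22 had an entry and 11 of these held the motif, with none in Psmb8, Psmb9, Psmb10, Tap1 or Tapbp. That is too few entries for a share over the list. A count over the genes that fell was void as a check, since only 508 of the 677 protein-coding genes lower by at least 1 log2 (75%) had an entry.

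The 3 genes with printed promoters had a lower GF than convR mean at every sampling time. Gbp7 ran at 19.4 to 43.7 CPM in convR (median 29.2) and 7.91 to 13.3 CPM in GF (median 10.7), a difference of -1.51 (SE 0.11, adjusted p = 3.4e-09). Igtp averaged 29.8 ± 14.4 CPM in convR (SD, n = 12) and 4.91 ± 1.74 CPM in GF (SD, n = 11), a difference of -2.58 (SE 0.29, adjusted p = 1.8e-06). Gbp3 averaged 12.1 ± 1.47 CPM in convR (SD, n = 12) and 5.85 ± 1.45 CPM in GF (SD, n = 11), a difference of -1.09 (SE 0.10, adjusted p = 3.0e-08). All GF libraries of the 3 genes lay below the convR range. Igtp and its neighbour Irgm2 (-2.30) overlap in the annotation, and guanylate-binding protein genes are close copies of each other, so the split of counts among them is uncertain.

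Of the 32 genes on the list of interferon GTPases and antigen processing, 31 were tested, 29 were lower and 2 were higher, with a median of -1.38 against 0.0068 over all genes. Ciita, the master regulator of MHC class II genes (chr16:10480059-10528418, mm10), ran at 40.6 to 102 CPM in convR (median 58.1) and 5.08 to 10.3 CPM in GF (median 6.37), a difference of -3.11 (SE 0.17, adjusted p = 2.2e-10). Nlrc5, its counterpart for MHC class I, averaged 26.8 ± 13.8 CPM in convR (SD, n = 12) and 3.38 ± 1.25 CPM in GF (SD, n = 11), a difference of -2.95. The immunoproteasome subunits that cut peptides for class I differed by -2.58 (Psmb8), -2.02 (Psmb9) and -0.86 (Psmb10), and the peptide pumps Tap1 and Tap2 by -1.81 and -1.25. Members used by most cells moved less, with B2m at -0.68 and the loading factor Tapbp at -0.29. The 2 members that rose were the chains of the interferon-gamma receptor, Ifngr1 (0.38) and Ifngr2 (0.16). With library totals alone as scaling, or without ZT2 or its GF library, 1 of them was called.

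MHC class II genes, whose products show peptides to helper T cells, were among the largest and most even falls. H2-Ab1, the beta chain of I-A, ran at 312 to 730.0 CPM in convR (median 501) and 21.5 to 51 CPM in GF (median 35.9), a difference of -3.74 (SE 0.18, adjusted p = 5.2e-11). Its peptide-loading chaperone subunits H2-DMb1 and H2-DMa differed by -4.32 (SE 0.14, adjusted p = 7.7e-14) and -3.27 (SE 0.13, adjusted p = 4.6e-13). Cd74, the invariant chain, ran at 1052 to 1795 CPM in convR (median 1427) and 68.4 to 149 CPM in GF (median 103), a 13-fold fall. For these 4 genes no GF library reached the lowest convR library. H2-DMb1 has a close copy, H2-DMb2, and the reads of the pair may be shared.

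Outside the immunoglobulin segments the largest fall was in Ceacam10, a secreted member of the carcinoembryonic antigen family (ENSMUSG00000054169, chr7:24777206-24784657, mm10). It ran at 14.2 to 24.5 CPM in convR (median 18.8) and 0.043 to 0.332 CPM in GF (median 0.25), a difference of -6.48 (SE 0.15, adjusted p = 1.5e-17). The convR libraries lay within a narrow band and every GF library lay far below it. Saa1, a serum amyloid A protein that binds lipid and retinol, ran at 4.32 to 33.8 CPM in convR (median 13.5) and 0.165 to 0.894 CPM in GF (median 0.381), a difference of -4.97 (SE 0.28, adjusted p = 2.2e-10). Cd177, a surface glycoprotein best known from neutrophils, ran at 9.38 to 15 CPM in convR (median 11.9) and 0.688 to 1.39 CPM in GF (median 0.932), a difference of -3.62 (SE 0.10, adjusted p = 2.4e-16). Ubd, a ubiquitin-like modifier induced by interferon-gamma and TNF, ran at 2.98 to 87.5 CPM in convR (median 13.6) and 0.141 to 1.23 CPM in GF (median 0.727), a difference of -4.56 (SE 0.52, adjusted p = 2.0e-06). The groups did not overlap for Saa1, Cd177 or Ubd, and the convR values of Ubd were spread more widely than those of the other 2.

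Some of the largest falls rested on a few high convR libraries. Slc6a14, a broad carrier of neutral and cationic amino acids, ran at 0.288 to 98.3 CPM in convR (median 1.77) and 0.033 to 1.56 CPM in GF (median 0.141), a difference of -5.42 (SE 1.07, adjusted p = 6.1e-04). Its 3 highest convR libraries were both at ZT14 (38.2 and 98.3 CPM) and replicate 1 at ZT22 (46.2 CPM), and the groups overlapped. The estimate was -6.86 without GF ZT6 replicate 1 and -4.55 without convR ZT22 replicate 1. Cyp3a44, a cytochrome P450 of drug and steroid metabolism, ran at 0.987 to 29.7 CPM in convR (median 3.26) and 0.0635 to 1.66 CPM in GF (median 0.362), a difference of -3.83 (SE 0.68, adjusted p = 2.5e-04), again with overlap. Its highest values, 29.7, 19.8 and 17.6 CPM, were in convR ZT6 replicate 1, ZT14 replicate 2 and ZT22 replicate 1, partly the libraries that were high in Slc6a14. Without the 5 libraries low in Lct, which include 2 of the 3 highest for each gene, the differences were -3.60 and -2.88, still lower, with adjusted p of 0.041 and 0.0066.

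**Figure D2:**
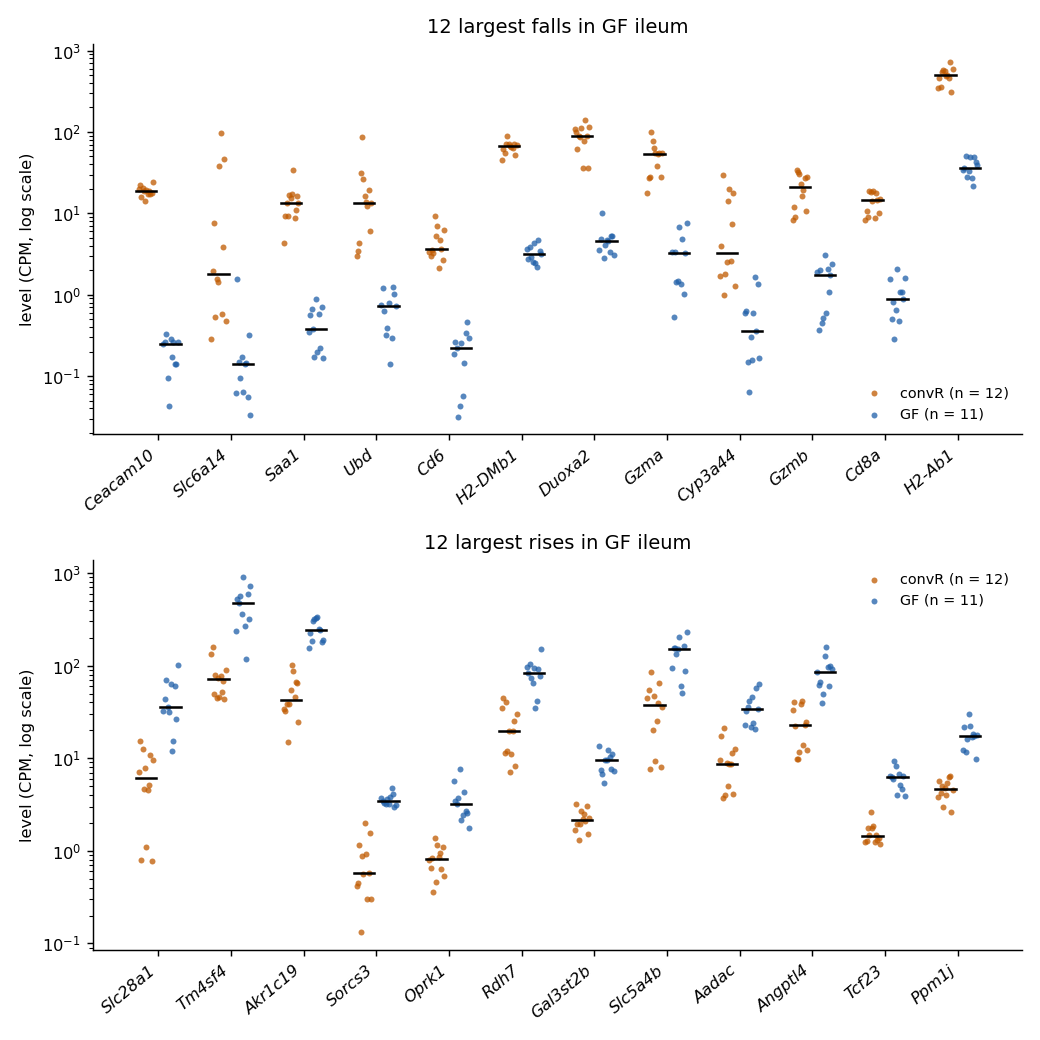
Level (CPM, log scale) in each library for the 12 largest falls (upper panel) and the 12 largest rises (lower panel) in GF ileum, with convR (n = 12) in orange, GF (n = 11) in blue and a bar at each group's median. Among the falls the groups overlap for Slc6a14 and Cyp3a44, and among the rises for Slc28a1, Tm4sf4, Rdh7, Slc5a4b, Aadac and Angptl4.

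Transcripts of T cells and killer cells were a second block. All 20 tested members of the cytotoxic list (25 listed) were lower, with a median of -2.48, and for 17 of them the groups did not overlap. Gzma, a granule protease, ran at 17.7 to 98.6 CPM in convR (median 53.8) and 0.53 to 7.56 CPM in GF (median 3.28), a difference of -4.00 (SE 0.43, adjusted p = 1.2e-06). Gzmb ran at 8.33 to 33.8 CPM in convR (median 21) and 0.364 to 3.03 CPM in GF (median 1.75), a difference of -3.82 (SE 0.40, adjusted p = 7.0e-07). No GF library of either protease reached the convR range. Other granule parts fell with them, the pore former Prf1 (-3.57), the protease Ctsw (-2.81) and the proteoglycan Srgn, which packs granules in many blood cells (-1.76). Receptors shared with myeloid cells moved less, with Tyrobp at -0.70 and Fcer1g at -0.91. In bulk tissue, fewer cells of a type and less RNA per cell cannot be told apart.

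The 5 T cell markers summed to 26.2 to 49.1 CPM in convR (median 37.41) and 2.35 to 7.31 CPM in GF (median 4.80), and all 5 were lower. Cd8a, the co-receptor of most intraepithelial T cells, ran at 8.33 to 19 CPM in convR (median 14.4) and 0.286 to 2.07 CPM in GF (median 0.891), a difference of -3.79 (SE 0.29, adjusted p = 1.0e-08). Cd4, the co-receptor of helper T cells, averaged 7.28 ± 1.38 CPM in convR (SD, n = 12) and 1.93 ± 0.453 CPM in GF (SD, n = 11), a difference of -1.90. Cd6, a co-receptor of T cell activation, ran at 2.16 to 9.36 CPM in convR (median 3.6) and 0.0317 to 0.463 CPM in GF (median 0.222), a difference of -4.41 (SE 0.34, adjusted p = 6.1e-09). No GF library of Cd8a or Cd6 reached the convR range.

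Fewer markers of B cell follicles were called. Of 11 listed germinal centre and follicle genes 9 were tested and 4 were lower. Ms4a1, the CD20 protein of B cells, ran at 0.362 to 29 CPM in convR (median 14.1) and 0.204 to 8.84 CPM in GF (median 3.24), a difference of -1.79 (SE 0.77, adjusted p = 0.072), and the complement receptor Cr2 was not called either (-1.34, adjusted p = 0.21). Replicate 1 of convR held 15.5 to 29.0 CPM of Ms4a1 at all 6 times, above every GF library, while replicate 2 held 12.7 CPM at ZT2 and 7.85 CPM at ZT18 and between 0.362 and 1.05 CPM at the other 4. Cr2 split in the same libraries, with at least 15.8 CPM in replicate 1 and at most 0.809 CPM in those 4. Without the 5 libraries low in Lct, 3 of them convR replicate 1, the differences were -0.31 for Ms4a1 and 0.14 for Cr2. The part of follicle tissue in other results was not tested. Immunoglobulin segments fell more widely: of 155 tested, which share sequence, 145 were lower and 2 higher, with a median of -3.32. Which cells of the B lineage these transcripts came from was not tested.

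When genes were grouped by the letters at the start of their symbol, 261 groups had 8 or more tested protein-coding members, and over all such genes 4.8% were lower by at least 1 log2. The groups with the largest share of such falls were Apol (6 of 9), Gimap (5 of 8), Tlr (6 of 12), Cd (38 of 80), Ly (5 of 11) and Tnfsf (4 of 9). All 8 Gimap genes, GTPases of lymphocyte survival, were lower, with differences from -0.39 (Gimap9) to -2.68 (Gimap7). The apolipoprotein L group divided. Apol7e averaged 3.74 in convR against 0.427 CPM in GF (-3.13), Apol7b differed by -2.60 and Apol10a, the most read of those that fell, averaged 287 in convR against 139 CPM in GF, whereas Apol9a and Apol9b rose by 0.90 and 1.25 and Apol7a did not pass the test (0.09). These genes lie side by side and are close copies, and the call of Apol9a was lost without the pair of libraries low in Fabp6. The medians of the 6 groups kept their sign with each of the other scalings.

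Within the Cd group, receptors of lymphocytes were at the low end and broadly expressed surface proteins near 0. Cd5, Cd3d and Cd7 differed by -3.65, -3.43 and -3.35. The costimulatory receptors Cd28, Cd27 and Cd40 differed by -2.48, -1.86 and -1.37. Cd63, Cd81, Cd9 and Cd151, tetraspanins found in most cells, differed by -0.24 to -0.04 and were not called. Cd163, a scavenger receptor of macrophages, rose by 0.27, while Cd68, also a macrophage protein, fell (-0.73).

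Chemokines and their receptors gave 25 lower and 2 higher of 30 tested (38 listed), with a median of -1.05. Receptors of T cells led: Cxcr6 ran at 2.95 to 5.05 CPM in convR (median 4.06) and 0.367 to 1.2 CPM in GF (median 0.734), a difference of -2.46 (SE 0.17, adjusted p = 6.2e-10), and Cxcr3 differed by -2.18. Ccl5, made by activated T and killer cells, ran at 5.09 to 23.8 CPM in convR (median 14.5) and 0.537 to 2.36 CPM in GF (median 0.937), a difference of -3.61 (SE 0.28, adjusted p = 1.5e-08). Epithelial chemokines moved in both directions. Ccl28, which draws IgA plasma cells, ran at 41.9 to 67.6 CPM in convR (median 56.5) and 21.7 to 39.1 CPM in GF (median 27.7), a difference of -0.95 (SE 0.07, adjusted p = 2.0e-09), Ccl20 averaged 2.38 in convR against 0.404 CPM in GF (-2.42), and Ccl25, the ligand of Ccr9 that brings T cells to the small intestine, rose, averaging 356 in convR against 405 CPM in GF (0.19). Cxcl11 was the other gene that rose (0.52), although Cxcl9 and Cxcl10, which bind the same receptor, differed by -2.67 and -2.08.

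Factors that draw or hold lymphocytes in the mucosa moved in both directions. Of 21 tested, 11 were lower and 4 higher, or 1 higher with library totals alone, 7 without GF ZT10 replicate 1 and 2 without the 5 libraries low in Lct (median -0.52). Pigr, the receptor that carries IgA through the epithelium (chr1:130826684-130852249, mm10), ran at 2002 to 3293 CPM in convR (median 2291) and 559.6 to 778 CPM in GF (median 669), a difference of -1.90 (SE 0.08, adjusted p = 4.6e-13). The adhesion molecule Icam1 and the survival cytokines Il7 and Tnfsf13b ran, respectively, at medians of 7.67 against 2.94, 5 against 2.03 and 4.49 against 1.76 CPM, with differences of -1.36, -1.42 and -1.41. For these 4 genes no GF library reached the convR range. Il15, the cytokine on which intraepithelial lymphocytes depend, averaged 20.1 ± 2.52 CPM in convR (SD, n = 12) and 22.9 ± 3.64 CPM in GF (SD, n = 11) and was not called, with a difference of 0.19 (SE 0.08, adjusted p = 0.067). Of 4 butyrophilin-like genes, a family with members that select gut gamma-delta T cells, Btnl1 alone was called (0.25), and this call was lost without the pair of libraries low in Fabp6.

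The oxidant enzymes that face the lumen fell, and parts of the antioxidant system moved in both directions. Of 40 tested genes 22 were lower and 8 higher (median -0.24). Duoxa2, which matures the hydrogen peroxide source Duox2, ran at 36.2 to 141 CPM in convR (median 90) and 2.86 to 10 CPM in GF (median 4.58), a difference of -4.22 (SE 0.28, adjusted p = 2.3e-09), and Duox2 ran at 175 to 642 CPM in convR (median 303) and 46.8 to 98.6 CPM in GF (median 58.3), a difference of -2.41 (SE 0.17, adjusted p = 4.3e-09). Cyba, the membrane subunit shared by NADPH oxidases, ran at 37.9 to 58.2 CPM in convR (median 46.7) and 9.35 to 12.1 CPM in GF (median 10.6), a difference of -2.12 (SE 0.07, adjusted p = 9.2e-15). For all 3 the groups did not overlap. Nox1 averaged 5.48 in convR against 0.585 CPM in GF (-3.03), and the phagocyte subunits Ncf1 and Ncf4 differed by -1.47 and -1.34.

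On the antioxidant side, Gclc, which catalyses the limiting step of glutathione synthesis, ran at 54 to 93.9 CPM in convR (median 77) and 129 to 238 CPM in GF (median 174), a difference of 1.26 (SE 0.08, adjusted p = 4.0e-10), with every GF library above every convR library. Its regulatory partner Gclm was not called (0.13, adjusted p = 0.12). Catalase (Cat, 0.89), the cytosolic superoxide dismutase Sod1 (0.52) and the lipid peroxidase Gpx4 (0.50) rose, while Gpx2, the epithelial glutathione peroxidase, averaged 251 in convR against 137 CPM in GF (-0.88) and Slc7a11, the cystine carrier, differed by -1.20. Cth, which makes cysteine from cystathionine, was among the rises with the smallest p, at 48.6 to 102 CPM in convR (median 71.8) and 144 to 207 CPM in GF (median 169), a difference of 1.20 (SE 0.06, adjusted p = 3.4e-12), also without overlap.

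**Figure D3:**
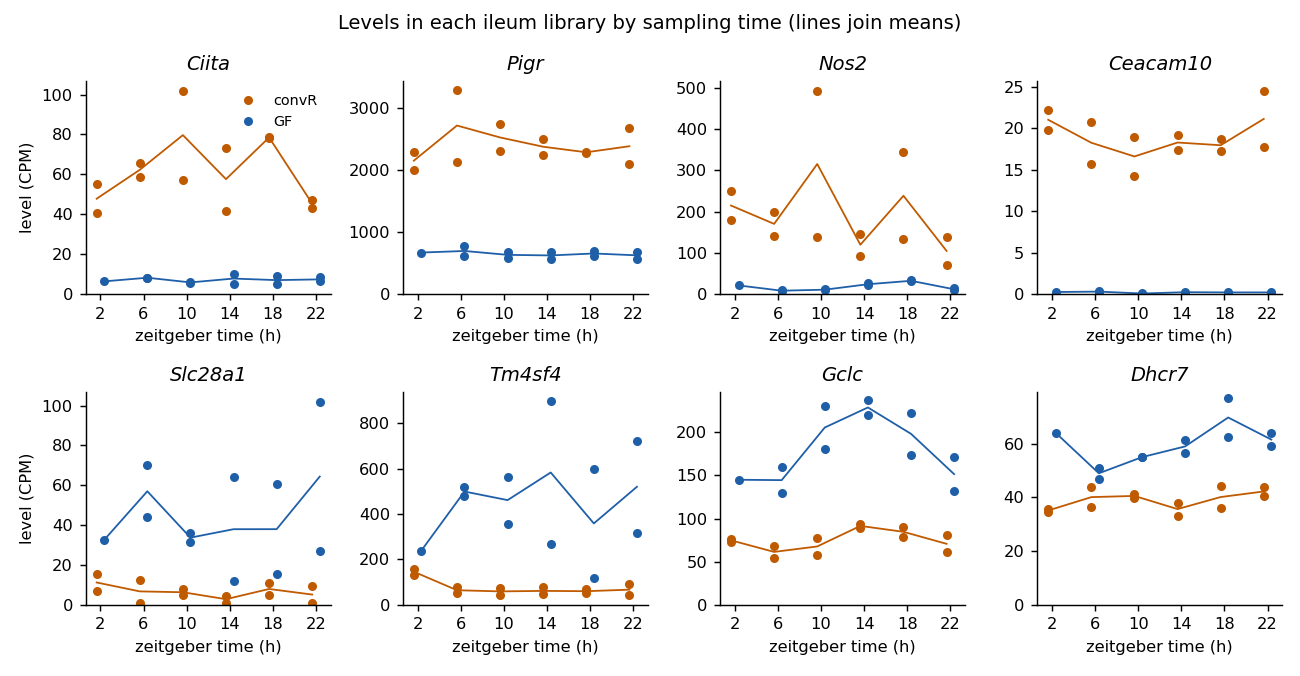
Level (CPM, linear axis from 0) in each ileum library against zeitgeber time (h) for 8 genes, convR in orange and GF in blue, with lines joining the mean at each time. Ciita, Pigr, Nos2 and Ceacam10 are lower in GF at all 6 times, and Slc28a1, Tm4sf4, Gclc and Dhcr7 are higher at all 6.

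Receptors for microbial products and their signalling partners gave 18 lower and 3 higher of 31 (median -0.34). Tlr2, a receptor of bacterial lipoproteins, ran at 3.4 to 6.86 CPM in convR (median 4.31) and 1.15 to 1.81 CPM in GF (median 1.42), a difference of -1.68 (SE 0.11, adjusted p = 2.1e-10), and its partner Tlr1 at 8.1 to 15.6 CPM in convR (median 11.8) and 3.7 to 7.16 CPM in GF (median 5.43), a difference of -1.18 (SE 0.12, adjusted p = 9.9e-08). Nfkbiz, a nuclear regulator of NF-kB targets, ran at 52.6 to 104 CPM in convR (median 81) and 30.6 to 42.4 CPM in GF (median 36.1), a difference of -1.07 (SE 0.09, adjusted p = 5.3e-09). The groups did not overlap for these 3. Tlr5, which binds flagellin, and Tlr3, which binds double-stranded RNA, were not called (-0.12 and -0.17, adjusted p = 0.64 and 0.1). The core NF-kB subunits Rela and Nfkb1 were not called either (-0.03 and 0.02), whereas the inhibitors of the pathway Tollip and Sigirr rose (0.18 and 0.26).

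Genes of inflammasomes and lytic cell death gave 14 lower, none higher and 11 not called of 25 (median -0.34). Several sensors and executioners fell. Zbp1, a sensor of nucleic acids that starts necroptosis, ran at 8.04 to 50.5 CPM in convR (median 23.1) and 2.23 to 7.57 CPM in GF (median 3.1), a difference of -2.72 (SE 0.27, adjusted p = 3.6e-07), and Mlkl, which ruptures the membrane, ran at 7.85 to 15.4 CPM in convR (median 12.9) and 4.62 to 7.83 CPM in GF (median 5.4), a difference of -1.13 (SE 0.08, adjusted p = 1.5e-09). Casp4, the caspase that senses lipopolysaccharide in the cytosol, ran at 31.1 to 55.4 CPM in convR (median 45.5) and 11.8 to 27.3 CPM in GF (median 18.2), a difference of -1.27 (SE 0.11, adjusted p = 2.1e-08). No GF library reached the convR range for these 3. The gasdermins Gsdmc2, Gsdmc3 and Gsdmc4, close copies of each other, differed by -1.53, -1.78 and -1.74, while Gsdmd was not called (-0.11). The sensors Nlrp6, Nlrc4 and Nlrp9b were between -0.13 and 0.06 and were not called, nor was Il18 (-0.25, adjusted p = 0.29).

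Complement and coagulation gave 15 lower and 4 higher of 29 (median -0.35). Subunits of the first component fell together, C1qa (-0.97), C1qb (-0.85) and C1qc (-0.83). The protease C1ra ran at 9.51 to 16 CPM in convR (median 11.3) and 5.28 to 7.31 CPM in GF (median 6.29), a difference of -0.87 (SE 0.08, adjusted p = 1.9e-08). Its inhibitor Serping1 ran at 33.9 to 45.3 CPM in convR (median 37.1) and 20.1 to 25.4 CPM in GF (median 22.6), a difference of -0.70 (SE 0.05, adjusted p = 2.5e-09). Cfi, which degrades C3b, ran at 2.45 to 5.92 CPM in convR (median 3.69) and 0.727 to 2.06 CPM in GF (median 1.08), a difference of -1.81 (SE 0.17, adjusted p = 3.7e-08). The groups did not overlap for C1ra, Serping1 or Cfi. C3 averaged 122 in convR against 76.1 CPM in GF (-0.70) and C4b 36 in convR against 18.3 CPM in GF (-0.99), whereas Cfb, which forms the alternative pathway convertase, averaged 203 in convR against 241 CPM in GF and rose (0.26), and C2 was not called (0.04).

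Glycosyltransferases that cap surface glycans gave 12 lower and 6 higher of 26 (median -0.12). Falls were the larger. Gcnt1, which branches core O-glycans, averaged 33 ± 26.9 CPM in convR (SD, n = 12) and 4.11 ± 1.49 CPM in GF (SD, n = 11), a difference of -2.87. B3galt5, which builds type 1 chains, ran at 2.85 to 20.2 CPM in convR (median 6.67) and 0.776 to 1.72 CPM in GF (median 1.09), a difference of -2.74 (SE 0.29, adjusted p = 6.1e-07), and Fut2, the fucosyltransferase that decorates epithelial and mucin glycans, ran at 2.11 to 13.8 CPM in convR (median 4.84) and 0.698 to 2.36 CPM in GF (median 1.17), a difference of -1.95 (SE 0.24, adjusted p = 3.0e-06), the first without and the second with overlap. B4galnt1 and B4galnt3, N-acetylgalactosaminyltransferases, rose by 0.54 and 0.43. B4galnt2, which adds the same sugar to epithelial glycans, was the most read of the 3 and was not called (398 in convR against 388 CPM in GF, -0.04). Muc2, the main secreted mucin, was not called (0.12, adjusted p = 0.56).

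Nucleoside genes moved in both directions, near the shares of all genes. Of 24 tested, 6 were lower (3 without ZT2) and 6 higher, with a median of -0.11. Over all genes 22.4% were lower and 19.5% higher. Slc28a1, the concentrative carrier of pyrimidine nucleosides (ENSMUSG00000025726, chr7:81114799-81170416, mm10), gave the largest rise among the genes named by size, at 0.785 to 15.3 CPM in convR (median 6.1) and 11.8 to 102 CPM in GF (median 36), a difference of 2.85 (SE 0.52, adjusted p = 2.9e-04). Its purine counterpart Slc28a2 averaged 296 ± 188 CPM in convR (SD, n = 12) and 108 ± 109 CPM in GF (SD, n = 11), a difference of -1.48. Upp1, which splits uridine, ran at 94.5 to 353 CPM in convR (median 169) and 25.3 to 57.4 CPM in GF (median 41.2), a difference of -2.01 (SE 0.20, adjusted p = 4.5e-07), while Cda, which deaminates cytidine, averaged 26.7 in convR against 55.5 CPM in GF (1.11) and Dpyd, which breaks down uracil and thymine, ran at 186 to 227 CPM in convR (median 210.0) and 265 to 385 CPM in GF (median 318), a difference of 0.63 (SE 0.06, adjusted p = 1.3e-07). Groups overlapped for Slc28a1 and lay apart for Upp1 and Dpyd. The lowest Slc28a1 values of each group, at most 1.1 CPM in 3 convR libraries and at most 15.4 CPM in 2 GF libraries, were in the 5 libraries low in Lct, and without them the difference was 2.55. On the outer surface, the AMP phosphatase Nt5e fell (-1.01), as did Entpd1 (-0.66), whereas Entpd5 rose (0.60).

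Tryptophan and NAD genes gave 6 lower and 7 higher of 22, against 22.4% lower and 19.5% higher over all genes. On the kynurenine route 3 genes fell. Ido1, its first enzyme, ran at 23.9 to 76.3 CPM in convR (median 48.3) and 7.2 to 23.6 CPM in GF (median 16.9), a difference of -1.50 (SE 0.23, adjusted p = 5.8e-05), Kynu at 2.78 to 4.97 CPM in convR (median 3.54) and 1.1 to 2.31 CPM in GF (median 1.52), a difference of -1.18 (SE 0.12, adjusted p = 1.7e-07), and Kmo differed by -0.83. Genes of amine breakdown and uptake rose. Maoa ran at 612 to 963 CPM in convR (median 750.1) and 961 to 1676 CPM in GF (median 1325), a difference of 0.73 (SE 0.07, adjusted p = 9.8e-08), Maob averaged 67.1 in convR against 149.5 CPM in GF (1.19), and the serotonin carrier Slc6a4 averaged 54 in convR against 80.2 CPM in GF (0.55). Tph1, which makes serotonin in enterochromaffin cells, was not called (-0.05, adjusted p = 0.81). Ido1 and Kynu had no GF library in the convR range, and for Maoa the groups overlapped.

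Arginine and polyamine genes gave 7 lower and 8 higher of 27, near the shares of all genes (median 0.02, which turned to -0.03 with library totals alone). One member stood far out: Nos2, the inducible nitric oxide synthase, ran at 70.9 to 493 CPM in convR (median 144) and 7.2 to 33.1 CPM in GF (median 14), a difference of -3.48 (SE 0.33, adjusted p = 2.7e-07), without overlap. Arg2 and Odc1, which turn arginine into ornithine and ornithine into putrescine, rose (0.57 and 0.65), and Smox, which oxidises spermine, fell (-0.62).

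Vitamin genes gave 9 lower and 11 higher of 33 (median -0.02), against 22.4% lower and 19.5% higher over all genes. Slc46a1, the proton-coupled folate carrier, ran at 7.83 to 26.1 CPM in convR (median 12.1) and 4.03 to 7.46 CPM in GF (median 4.81), a difference of -1.37 (SE 0.19, adjusted p = 1.0e-05), without overlap. Slc46a1 belongs to the upper small intestine, and of the 10 listed genes of that region 9 were tested and 2 were lower, the iron genes Slc40a1 (-1.36) and Cybrd1 (-0.77). The thiamine carrier Slc19a2 ran at 11.5 to 15.3 CPM in convR (median 13) and 16.5 to 22.9 CPM in GF (median 18), a difference of 0.53 (SE 0.05, adjusted p = 2.7e-08). Pdxk, which activates vitamin B6, ran at 40.6 to 59.2 CPM in convR (median 51.1) and 62.2 to 89.4 CPM in GF (median 71.6), a difference of 0.55 (SE 0.06, adjusted p = 6.5e-07). For both, every GF library was above every convR library. Cubn and Amn, which together take up cobalamin bound to intrinsic factor, rose by 0.72 and 0.28, and the call of Amn was lost without the pair of libraries low in Fabp6. In convR, Cubn was higher in replicate 1 than in replicate 2 at all 6 times.

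The largest rises were in genes of several kinds. Tm4sf4, a membrane protein of the tetraspan family (ENSMUSG00000027801, chr3:57425314-57441677, mm10), ran at 43.6 to 158 CPM in convR (median 71.2) and 118 to 897 CPM in GF (median 479), a difference of 2.75 (SE 0.34, adjusted p = 4.9e-06), with overlap at the low GF end. Akr1c19, an aldo-keto reductase, ran at 14.8 to 102 CPM in convR (median 42.4) and 155 to 335 CPM in GF (median 242), a difference of 2.31 (SE 0.18, adjusted p = 1.9e-08), and Akr1c13 at 28.1 to 67.6 CPM in convR (median 48.9) and 114 to 192 CPM in GF (median 154), a difference of 1.59 (SE 0.09, adjusted p = 6.4e-11). Sorcs3, a sorting receptor, and Oprk1, the kappa opioid receptor, were low throughout, at 0.132 to 2 CPM in convR (median 0.569) and 2.99 to 4.76 CPM in GF (median 3.48) and 0.362 to 1.37 CPM in convR (median 0.823) and 1.75 to 7.7 CPM in GF (median 3.21). The groups did not overlap for these 4. Slc5a4b, of the sodium-glucose carrier family, ran at 7.73 to 86.4 CPM in convR (median 37.6) and 50 to 229 CPM in GF (median 151), a difference of 1.99 (SE 0.44, adjusted p = 0.0015), and Angptl4, an inhibitor of lipoprotein lipase, at 9.72 to 41.8 CPM in convR (median 22.6) and 39 to 159.7 CPM in GF (median 85), a difference of 1.98 (SE 0.16, adjusted p = 2.0e-08), both with overlap. The lowest Slc5a4b values of each group, at most 9.25 CPM in convR and at most 60.6 CPM in GF, were in the 5 libraries low in Lct.

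Several rises were smaller and even across libraries. Ppara, the nuclear receptor of fatty acids, ran at 23.3 to 44.9 CPM in convR (median 30.5) and 44.5 to 83 CPM in GF (median 58), a difference of 0.91 (SE 0.06, adjusted p = 2.9e-10), with a slight overlap. Hsd17b13, a lipid droplet enzyme, ran at 4.41 to 9.9 CPM in convR (median 7.71) and 18.4 to 25.1 CPM in GF (median 19.2), a difference of 1.47 (SE 0.09, adjusted p = 2.9e-10). Bche, butyrylcholinesterase, ran at 107 to 194 CPM in convR (median 144) and 293 to 391 CPM in GF (median 337), a difference of 1.26 (SE 0.08, adjusted p = 2.2e-10), and Ugt2b36, a glucuronosyltransferase, at 8.7 to 14 CPM in convR (median 10.1) and 20.8 to 28.7 CPM in GF (median 24.2), a difference of 1.25 (SE 0.07, adjusted p = 2.9e-11). The last 3 had every GF library above every convR library, as had Vopp1, the rise with the smallest p. Vopp1 ran at 31.7 to 50.2 CPM in convR (median 40.2) and 89.4 to 125 CPM in GF (median 102), a difference of 1.41 (SE 0.06, adjusted p = 4.6e-13).

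The 6 symbol groups of 261 with the largest share of rises by at least 1 log2 were mostly enzyme families of steroid, retinoid, aldehyde and ester metabolism, with Nat, of acetyl transfer, beside them. They were Hsd (3 of 13 higher by at least 1 log2), Rdh (2 of 11), Nat (2 of 11), Akr (2 of 12), Ces (2 of 12) and Cyp (8 of 49). Over all genes so grouped the share was 0.937%, and the 6 were picked on this share. Each also held falls or genes near 0. Among carboxylesterases Ces1g and Ces1e rose (1.78 and 1.15), while Ces2a, read far more, averaged 496 ± 142 CPM in convR (SD, n = 12) and 109.9 ± 57 CPM in GF (SD, n = 11) (-2.21). Among cytochromes P450, Cyp4b1 (104 in convR against 314 CPM in GF, 1.65), Cyp2j6 (1.36) and Cyp2d26 (1.18) rose, while Cyp2c55 (164 in convR against 20.7 CPM in GF, -2.85), Cyp3a25 (-1.69) and Cyp3a11 (-1.39) fell. In the aldo-keto reductases, 4 of the Akr1c genes rose (Akr1c19, Akr1c13, Akr1c14 and Akr1c12, from 0.82 to 2.31), whereas 4 Akr1b genes fell (-0.70 to -0.22), and the call of Akr1b8 was lost without the pair of libraries low in Fabp6. Close copies within these families may share reads. The medians of these 6 groups were positive under all 3 scalings.

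Retinoid genes gave 13 higher and 5 lower of 27 (median 0.26). Rdh7, a retinol dehydrogenase, ran at 7.13 to 45.1 CPM in convR (median 19.5) and 34.8 to 150.4 CPM in GF (median 83.5), a difference of 2.08 (SE 0.29, adjusted p = 2.1e-05). Aldh1a1, which makes retinoic acid from retinal, ran at 104 to 276 CPM in convR (median 213) and 319.7 to 555 CPM in GF (median 417), a difference of 1.01 (SE 0.13, adjusted p = 5.1e-06), and its relatives of stromal and immune cells, Aldh1a2 and Aldh1a3, differed by -0.41 and -0.52. Isx, the homeobox factor that restrains carotene uptake, ran at 98 to 148 CPM in convR (median 124) and 144 to 304 CPM in GF (median 201), a difference of 0.75 (SE 0.07, adjusted p = 3.1e-08). The carotene scavenger receptor Scarb1, which Isx represses, fell (-0.64), and the carotene cleaving enzyme Bco1 was not called (-0.74, adjusted p = 0.071). Of Rdh7, Aldh1a1 and Isx, Aldh1a1 alone had groups that did not overlap. The lowest Rdh7 value of each group, 7.13 CPM in convR and 34.8 CPM in GF, was in a library low in Lct.

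Sterol and fatty acid synthesis was the list with the most even rise, 29 higher and 1 lower of 37, with a median of 0.47 (0.42 and 26 higher with library totals alone). Dhcr7, the last enzyme of cholesterol synthesis, ran at 33.3 to 44.4 CPM in convR (median 39) and 46.9 to 77.2 CPM in GF (median 59.3), a difference of 0.60 (SE 0.06, adjusted p = 2.4e-07), without overlap. Lss, which closes the sterol ring, ran at 45.9 to 80.7 CPM in convR (median 69.8) and 68.9 to 186 CPM in GF (median 122), a difference of 0.84 (SE 0.12, adjusted p = 2.0e-05), with overlap. Scd2, a fatty acid desaturase, rose (0.87), as did Hmgcs1, an early enzyme of the sterol pathway (0.52). Insig1, a sterol-regulated brake on the pathway, rose (0.61), and Insig2, which is controlled apart from it, was the single fall (-0.38).

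Ion and water transport gave 15 higher and 2 lower of 36 (median 0.16). The guanylin peptides, which make the epithelium secrete chloride, rose together with their receptor: Guca2a ran at 275 to 458 CPM in convR (median 389) and 524 to 768 CPM in GF (median 618), a difference of 0.74 (SE 0.06, adjusted p = 1.0e-08), without overlap, Guca2b differed by 0.74 and Gucy2c by 0.25. The chloride channel Cftr rose (0.52). Car4, a membrane carbonic anhydrase, ran at 27.7 to 79.7 CPM in convR (median 51.9) and 79.7 to 122 CPM in GF (median 104), a difference of 1.01 (SE 0.07, adjusted p = 1.1e-09). Glycerol and water channels rose, with Aqp3 averaging 7.16 ± 3.9 CPM in convR (SD, n = 12) and 23.7 ± 11.3 CPM in GF (SD, n = 11), a difference of 1.77 (SE 0.36, adjusted p = 7.6e-04), and Aqp7 running at 8.19 to 15.9 CPM in convR (median 11.4) and 15.3 to 31.4 CPM in GF (median 24.7), a difference of 1.11 (SE 0.11, adjusted p = 8.7e-08). The lowest Aqp3 values of each group, at most 3.61 CPM in convR and at most 11.4 CPM in GF, were in the 5 libraries low in Lct. The sodium-proton exchanger Slc9a3 averaged 26.6 in convR against 12.5 CPM in GF and was not called (-1.09, adjusted p = 0.14).

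Bile acid genes, which mark the ileum, were called in both directions. Of 17 tested, 4 were lower, 5 higher and 8 not called, against 22.4% lower and 19.5% higher over all genes. Fabp6, the uptake carrier Slc10a2, the receptor Nr1h4 and the hormone Fgf15 were not called (0.08, 0.65, -0.03 and -0.01, with adjusted p from 0.31 to 0.99), and the SE of Fgf15, 0.69, was wide. Abcc3, an exporter on the blood side, ran at 46.8 to 119.9 CPM in convR (median 77.6) and 41.1 to 74.2 CPM in GF (median 54.5), a difference of -0.53 (SE 0.09, adjusted p = 1.1e-04), and Fgfr4, the receptor for Fgf15, at 2.3 to 6.37 CPM in convR (median 3.37) and 3.74 to 8.12 CPM in GF (median 6.52), a difference of 0.76 (SE 0.14, adjusted p = 1.9e-04), both with overlap.

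Structural genes of the brush border gave 8 higher and none lower of 22 (median 0.05, which turned to -0.0078 with library totals alone, under which 6 were higher and 1 lower). Cobl, an actin nucleator, ran at 180.3 to 366 CPM in convR (median 288) and 343 to 599.7 CPM in GF (median 436), a difference of 0.63 (SE 0.09, adjusted p = 1.3e-05). Vil1, the bundling protein villin, was not called (0.01). Sphingolipid genes gave 10 higher and 4 lower of 30. Degs2, which makes phytoceramide, ran at 132 to 165 CPM in convR (median 142) and 173 to 207 CPM in GF (median 189), a difference of 0.39 (SE 0.03, adjusted p = 1.1e-08), and Ugcg, which makes glucosylceramide, at 190.1 to 247 CPM in convR (median 212) and 251 to 372 CPM in GF (median 268), a difference of 0.40 (SE 0.06, adjusted p = 8.7e-06), both without overlap.

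**Figure D4:**
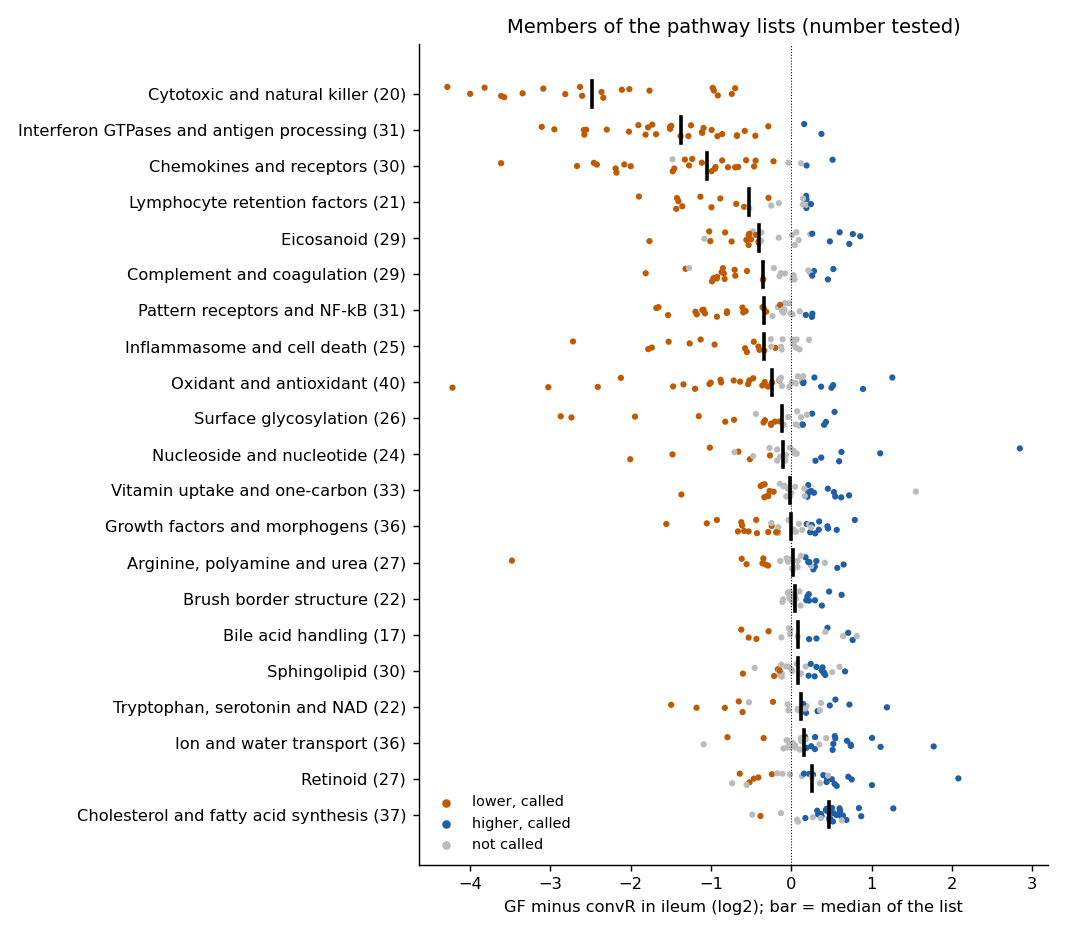
Difference between GF and convR ileum (log2, horizontal axis) for each tested member of the 21 pathway lists, 1 point per gene, orange for called lower, blue for called higher and grey for not called, with a bar at each list's median. Medians run from -2.48 for the cytotoxic list to 0.47 for sterol and fatty acid synthesis.

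The 8 genes with the largest drop in CPM (Lyz1, Reg3b, Defa24, Reg3g, Pigr, Sis, Cd74 and Defa21) summed to 23978 to 35497 CPM in convR and 10898 to 17991 CPM in GF. The 8 with the largest gain (Fabp2, Apob, Fcgbp, Anpep, Apoa1, Naaladl1, Cubn and Enpep) summed to 28999 to 43628 CPM in convR and 39688 to 65396 CPM in GF, and these genes were picked on that difference. The first sums did not overlap and the second did.

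Of the genes with the largest drops, Reg3b, an antibacterial lectin, ran at 2328 to 6100.3 CPM in convR (median 3654) and 89 to 1269 CPM in GF (median 664), a difference of -2.65 (SE 0.35, adjusted p = 1.2e-05), and Reg3g at 1345 to 3491 CPM in convR (median 1972) and 88.8 to 451 CPM in GF (median 323), a difference of -2.92 (SE 0.24, adjusted p = 3.5e-08), both without overlap. Lyz1, the lysozyme of Paneth cells, ran at 5071 to 9284 CPM in convR (median 7034) and 2690.2 to 5552 CPM in GF (median 3352), a difference of -0.92 (SE 0.14, adjusted p = 2.3e-05), and Defa24, one of many near-identical defensin genes whose reads may be shared, at 3514 to 6661 CPM in convR (median 4915) and 1652 to 4242 CPM in GF (median 2377), a difference of -0.93 (SE 0.13, adjusted p = 1.2e-05), both with overlap. Levels between genes are compared per kilobase of exon: mean CPM per kilobase of Defa24 was 11815 in convR and 6197 in GF, of Lyz1 5551 in convR and 2930.2 in GF, and of Reg3b 4998 in convR and 825 in GF. In both groups Defa24 was thus the highest of the 3 and Reg3b the lowest. In convR, Lyz1 and Defa24 were lower in replicate 1 than in replicate 2 at all 6 times.

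Of the genes with the largest gains, Fabp2, the fatty acid binding protein of enterocytes, ran at 2136 to 7860.4 CPM in convR (median 6441) and 6403 to 13115 CPM in GF (median 8314), a difference of 0.81 (SE 0.24, adjusted p = 0.011). In convR it was lower in replicate 1 than in replicate 2 at all 6 times, and 4 libraries of replicate 1 (ZT6, ZT10, ZT14 and ZT22) held 2136 to 3051 CPM against at least 5276 CPM in every other library. These were the 4 convR libraries lowest in Lct, and without the 5 libraries low in Lct the difference was 0.59, with adjusted p = 0.0085. Apob, the core protein of chylomicrons, ran at 5504 to 10349.6 CPM in convR (median 8208) and 7496 to 15793 CPM in GF (median 11572), a difference of 0.49 (SE 0.11, adjusted p = 0.0015), and Naaladl1, a brush border peptidase, at 1276 to 2572 CPM in convR (median 2123) and 2653 to 4168 CPM in GF (median 3251), a difference of 0.68 (SE 0.10, adjusted p = 1.8e-05). Naaladl1 alone of the 3 had groups apart. The peptidases Anpep and Enpep rose by 0.45 and 0.39, and Fcgbp, a mucus protein of goblet cells, by 0.42. In convR, Fcgbp, Anpep and Naaladl1 were higher in replicate 1 than in replicate 2 at all 6 times, and Enpep was not. Fcgbp ran at 4301 to 7229 CPM in convR replicate 2 and 6661 to 9624 CPM in convR replicate 1. In GF it ran at 7788 to 10970 CPM. Apoa1 passed the test with a difference of 0.41 (SE 0.15, adjusted p = 0.029), but the call was lost without the 5 libraries low in Lct (adjusted p = 0.14) and when any of 4 libraries was left out (convR ZT14 replicate 1, GF ZT14 replicate 1, GF ZT10 replicate 2 or GF ZT22 replicate 2). Sis, sucrase-isomaltase, was the one digestive enzyme among those 8 falls, at 3754 to 7676 CPM in convR (median 5595) and 2855 to 5602 CPM in GF (median 4091), a difference of -0.49 (SE 0.09, adjusted p = 1.1e-04), with overlap.

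Signals between epithelium and stroma moved in both directions, 14 lower and 11 higher of 36. Wnt4 ran at 2.48 to 6.6 CPM in convR (median 3.46) and 0.957 to 1.75 CPM in GF (median 1.26), a difference of -1.56 (SE 0.15, adjusted p = 4.2e-08), without overlap, and the stromal factors Bmp4, Bmp5 and Fgf7 differed by -0.61, -0.66 and -0.93. Some epithelial ligands rose, with Bmp2 at 0.46, Ihh at 0.45, Ereg at 0.57 and Hbegf at 0.79, although Gli1 and Ptch1, targets of hedgehog signalling, fell (-0.62 and -0.24). The niche factors Rspo3 and Grem1 were not called (0.06 and 0.25).

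Eicosanoid genes gave 13 lower and 6 higher of 29 (median -0.40). Several genes of prostaglandin and thromboxane synthesis fell. Ptgs1 ran at 22.3 to 30.2 CPM in convR (median 26.6) and 16.1 to 22.2 CPM in GF (median 18), a difference of -0.53 (SE 0.06, adjusted p = 2.7e-07), Ptges at 3.55 to 8.9 CPM in convR (median 6.09) and 1.89 to 4.6 CPM in GF (median 2.67), a difference of -1.01 (SE 0.10, adjusted p = 8.7e-08), and Hpgds and Tbxas1 differed by -0.74 and -1.02. Some enzymes that break down eicosanoids or epoxides rose, with Hpgd averaging 153 ± 31.6 CPM in convR (SD, n = 12) and 253 ± 50.3 CPM in GF (SD, n = 11) (0.72), Ptgr1 at 0.60 and Ephx2 at 0.86.

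Markers of other cell types moved beside these groups. Of 8 smooth muscle genes 7 were higher (6 with library totals alone), with Actg2 at 0.95, and their sum was 1913 to 2764 CPM in convR and 2531 to 3383 CPM in GF. Of 11 vessel genes 8 were lower, with sums of 102 to 155 and 79.6 to 114 CPM. Kdr (-0.59) and Pecam1 (-0.55) were among those 8, and the lymphatic markers Lyve1 and Prox1 were among the 3 not called (0.03 and 0.16). The lymphatic markers Pdpn and Flt4 are also on the list and were not both uncalled, so the calls did not split by vessel type. Glial genes gave no call of 5 tested, and 2 enteric neuron genes were higher and 4 lower of 18, among them Vip (-0.44). Over all genes 19.5% were higher and 22.4% lower, and the neuron counts did not exceed these shares. Epithelial markers gave 2 higher and none lower of 6 (Epcam 0.19, whose call was lost without the pair of libraries low in Fabp6, and Cdh1 0.19), and none was called with library totals alone. The part of these shifts in cell markers in the differences above was not tested.

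Fat and mast cell markers were high in single GF libraries. Of 6 adipocyte genes 4 were lower, among them Adipoq (10.7 in convR against 4.42 CPM in GF) and the hormone Lep (1.9 in convR against 0.447 CPM in GF), but GF ZT22 replicate 1 had Adipoq at 19.7 CPM, above every convR library. The mast cell proteases Mcpt1 and Mcpt2, close copies, were at 87 and 32.8 CPM in GF ZT6 replicate 2, and no other library of either group exceeded 4.48 CPM for Mcpt1 or 1.75 CPM for Mcpt2. Of the 9 mast cell genes 3 were tested and none was called. The 5 red cell genes overlapped between groups, summing to 5.86 to 23.1 CPM in convR and 6.92 to 21.3 CPM in GF, although 3 of them were called higher.

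The same contrast in duodenum (12 libraries a group) shows where the ileum stood apart, tested as the difference between the tissues' effects. It was more negative in ileum for 1461 genes (7.69% of 19000 tested) and more positive for 870 (4.58%). With library totals alone as scaling these were 972 and 1208. Antigen presentation and cytotoxic genes were lower in ileum by more: the effect was more negative for 25 of 31 interferon and antigen processing genes, 15 of 20 cytotoxic genes and all 5 T cell markers, with medians in duodenum of -0.40, -0.60 and -0.73. Cd8a differed by -0.55 in duodenum, and the ileum effect minus the duodenum effect was -3.23 (SE 0.30, adjusted p = 3.2e-09). Among the genes named by the rule Pigr gave the smallest p, at -0.37 in duodenum and a difference between tissues of -1.53 (SE 0.12, adjusted p = 1.9e-11). The rule named genes by their ileum values, which favours a larger effect in ileum.

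Sterol synthesis also differed, with a more positive effect in ileum for 13 of 37 genes and a median in duodenum of 0.09. Lss was at 0.17 in duodenum, a difference between tissues of 0.68 (SE 0.15, adjusted p = 0.0024). For Reg3g, Duox2 and Nos2 the fall was larger in duodenum (-5.54, -5.31 and -6.73), with differences of 2.62 (SE 0.47, adjusted p = 2.2e-04), 2.91 (SE 0.54, adjusted p = 3.4e-04) and 3.29 (SE 0.86, adjusted p = 0.0093), while for Saa1, Ceacam10, Pigr and Cd177 it was larger in ileum. Slc46a1 was -1.37 in ileum and 0.66 in duodenum, a difference of -2.02 (SE 0.29, adjusted p = 7.9e-06). Ifnar2, a chain of the type I interferon receptor, and the autophagy-related gene Atg16l2, both chosen after their values were seen, were called in opposite directions: -0.48 in ileum against 0.79 in duodenum for Ifnar2, and 1.46 against -0.40 for Atg16l2. Opposite calls were given for 86 genes lower in ileum and higher in duodenum and for 109 genes the reverse. The difference itself passed for all 195, which picking genes by opposite calls nearly ensures. Vessel markers, blood and lymphatic together, were lower in ileum for 8 of 11, were lower in duodenum for 2 and gave a more negative ileum effect for 6.

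**Figure D5:**
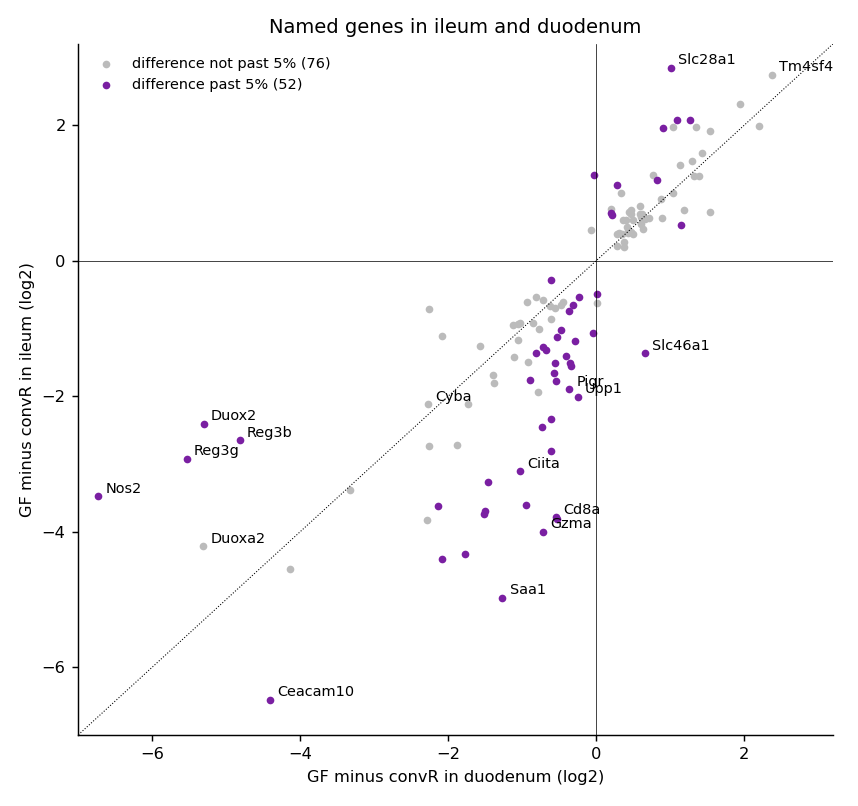
Difference between GF and convR in ileum (log2, vertical axis) against the same in duodenum (log2, horizontal axis) for 128 named genes tested in both, purple where the difference between tissues passed 5% (52 genes) and grey where it did not (76), with a dotted line of equal effects. Pigr, Cd8a, Gzma and Saa1 lie below the line and Nos2, Duox2, Reg3b and Reg3g above it.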

How the data were processed

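Total RNA from ileum and duodenum was sequenced after ribosomal depletion as paired reads of 100 cycles, per the labels' protocols. The authors deposited raw exon counts of 38087 genes in 47 libraries. Reads were aligned with STAR 2.4.0i to mm10, per the submitters' processing notes, and no source used here names the counter, its strand setting or the annotation. Samples were grouped by their labelled tissue and status.

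Counts of the 23 ileum libraries were fitted with edgeR 4.0.16 (R 4.3.3), quasi-likelihood with TMM scaling, after keeping genes with enough counts (minimum 10), with time and status as terms and Benjamini-Hochberg adjustment at 5%. The tissue comparison was an interaction in a fit of all 47. Adjusted p-values in the text come from these edgeR fits. The script was tested on simulated data. Library totals of 24925638 to 41911085 counts limit the precision of the lowest genes.

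Named genes were the 12 largest falls and rises, the 8 with the smallest p and the 8 with the largest change in CPM in each direction, all of one sign at all 6 times and with a mean of at least 2 CPM, leaving out predicted genes and immunoglobulin segments, then up to 4 called genes of each list by p, and 6 symbol groups in each direction. No gene had 0 counts in every library of 1 group and at least 1 count in every library of the other. Other list and group members in the text were chosen after their values were seen. Members and lists were chosen with earlier results of these data known. Gene positions come from GENCODE M21, which held 36308 of the gene IDs, and promoter sequences from RefSeq. Alternatives were other scalings, filters, DESeq2 1.42.0, the model without time, a replicate block, and leaving out each library, the libraries that stood apart or ZT2. Pancreas genes were too low to test. Results for some list members are not reported here.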

Additional observations from a re-analysis of the deposited data

Results flagged for a closer look

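The GF effect in ileum differed from that in duodenum for 22 of the 51 genes named by size, p or share of reads. The test was the interaction of edgeR with Benjamini-Hochberg adjustment over 19000 genes. Over all of these, 7.69% passed with a more negative and 4.58% with a more positive effect in ileum. The 51 were named by their ileum values, which favours a larger effect there. Values below are the ileum effect minus the duodenum effect in log2, and the effects in each tissue are given beside some of them.

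The antigen presentation genes H2-DMb1, H2-Ab1, Cd74 and H2-DMa were at -2.55, -2.23, -2.19 and -1.81. The T and killer cell genes Gzma, Gzmb, Cd8a and Cd6 were at -3.29, -3.29, -3.23 and -2.33. In all 8 the fall in ileum was the larger, a direction that naming genes by their ileum values favours. Gzmb, for instance, was -3.82 in ileum and -0.53 in duodenum. The part that cell numbers have in these differences was not tested.

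Among other genes, the ileum fall was also the larger for Saa1 (-3.69), Ceacam10 (-2.12), Pigr (-1.53) and Cd177 (-1.48). Saa1 was -4.97 in ileum and -1.27 in duodenum. Sis, -0.49 in ileum and 0.0089 in duodenum, gave -0.49 with the weakest adjusted p of the 22 (0.043). The lectins Reg3b and Reg3g went the other way, at 2.17 and 2.62, with duodenal effects of -4.82 and -5.54.

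Among rises, the ileum effect was the larger for Slc28a1 (1.85), Rdh7 (1.0015), Tcf23 (1.07), Gal3st2b (0.81) and Cth (0.39). Sorcs3 (2.51) and Oprk1 (1.70) gave a difference as well, although both were too low to be tested in duodenum by itself.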

How the results depend on the processing

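Beside the main setting, 34 others were run on the ileum, of which 23 left out 1 library and 1, without the 5 libraries low in Lct, was chosen after seeing the data. Of 131 genes named by rule, of which Slc6a14 was not tested at a minimum of 30 counts, none turned direction and 3 lost their call in some setting: Apoa1 (without any of 4 libraries, without the filter on low counts, without time in the model and without the 5 libraries), Slc9a3r1 (in the fit on all 47 libraries and without the 5) and A4gnt (in the fit on all 47). Without the 5, Slc6a14 and Cyp3a44 were at -3.60 and -2.88 and Sorcs3 at 2.86. With library totals alone as scaling, 2320 genes were higher and 972 genes had a more negative effect in ileum than in duodenum, each more than 1.5 times below the main count. The cause was not tested beyond the medians over all genes, which were -0.048 with library totals and 0.0068 with TMM. Leaving out 1 library gave 3237 to 3610 genes higher and 3791 to 4114 lower. Of the 21 pathway lists, 5 had a median that crossed 0 in some setting: arginine, bile acid, brush border, growth factor and vitamin genes. DESeq2's Wald test gave 3943 higher and 3927 lower. Leave-one-out fits of the interaction were not run.

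Libraries with one replicate number did not deviate together at every time, with correlations between the GF and convR deviations from -0.0642 at ZT18 to 0.297 at ZT22, so the numbers were not taken as pairs. These correlations compare the groups and cannot show a replicate set within convR. There, replicate 1 was below replicate 2 at all 6 times for Lyz1 and Defa24. It was above replicate 2 at all 6 for Fcgbp, Cubn, Anpep and Naaladl1, while Reg3b kept no such order. The main fit held no replicate term and treated the 12 convR libraries as separate. With the replicate block, 3951 genes were higher and 4289 lower in ileum, and 1005 and 1637 had a more positive and a more negative effect there than in duodenum.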

Other observations

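Ligands of the TNF superfamily moved in both directions. Of 9 tested, 7 were lower, among them Tnfsf13, which with Tnfsf13b sustains plasma cells (13.1 to 23 CPM in convR (median 16.1) and 8.21 to 12.1 CPM in GF (median 10.1), -0.69), Tnfsf12 (-0.61) and Tnfsf11, the RANK ligand (-1.73). All GF libraries of Tnfsf13 lay below the convR libraries. Tnfsf15 alone rose, at 2.95 to 7.46 CPM in convR (median 3.73) and 3.07 to 22.2 CPM in GF (median 6.46), a difference of 0.92 (SE 0.22, adjusted p = 0.0024). Of the Ly group Ly6e, a small surface protein induced by interferon, was the most read of those that fell by over 1 log2 (60 to 81.3 CPM in convR (median 69.5) and 21.3 to 42.5 CPM in GF (median 27.4), -1.34), whereas Ly75, an endocytic receptor, was not called (-0.08).

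Steroid and acetyl transfer enzymes gave several rises. Of 13 Hsd genes 9 were higher, with Hsd3b2 and Hsd3b3, which are close copies, at 1.19 and 1.02, and Hsd11b2, which inactivates corticosterone, averaging 8.96 ± 3.7 CPM in convR (SD, n = 12) and 16.5 ± 5.72 CPM in GF (SD, n = 11), a difference of 0.91 (SE 0.22, adjusted p = 0.0032). Nat8 ran at 12.2 to 21.8 CPM in convR (median 17.3) and 25.9 to 41.5 CPM in GF (median 31.3), a difference of 0.88 (SE 0.09, adjusted p = 9.8e-08), without overlap, and its close copies Nat8f5 and Nat8f6 rose by 1.20 and 1.21. Slc26a3, a chloride exchanger of the colon, rose (0.55). Both eosinophil genes tested were lower, Siglecf (-0.53) and Prg2 (-1.53). Of 710 noncoding intergenic and antisense genes tested, 67 were lower and 125 higher, against 3636 and 2806 of 14562 protein-coding genes, and without the counter's strand setting antisense reads cannot be told apart from those of the partner gene.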
